A study of Arabidopsis thaliana with 12 samples.

Results

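Expansins are plant cell wall proteins that loosen the wall without cutting its polymers. Here the expansin superfamily of *Arabidopsis thaliana* was followed in the roots of Col-0 seedlings and of the *siz1-2* mutant, with and without the auxin IAA. The members are the 34 genes named EXPA (25 genes), EXPB (5), EXLA (3) and EXLB (1), taken as a whole family by gene identifier. Of these, 27 are among the 23853 genes of the expression table, namely 20 EXPA, 3 EXPB, 3 EXLA and 1 EXLB gene. The remaining 7 members, EXPA22 to EXPA26, EXPB4 and EXPB5, were not analysed here. A minimum of 1 FPKM in at least 3 libraries was met by 22 members, and these entered the tests. FPKM scale the fragments of a gene to its transcript length and to the depth of the library, so that levels can be set side by side between genes on a per-length scale.

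RNA was sequenced from *siz1-2* roots with IAA, *siz1-2* roots on MS medium, Col-0 roots with IAA and Col-0 roots on MS medium, with 3 libraries in each of the 4 groups and 12 in all. The labels give 0.5 µM IAA for 3 h and a growth of 7 days at 22 °C after a cold period. The study's methods give a slightly greater age, and the treatment text of the labels names IAA for all 12 libraries, so the groups follow the titles and the treatment field. Col-0 is the wild type, and *siz1-2* is a mutant line with an insertion in SIZ1, the gene of a SUMO E3 ligase that attaches the small protein SUMO to other proteins. A single mutant line was used, and the labels write it as siz1. No source says how the libraries of a group differ in origin, so the p-values measure the spread between these libraries, which may be technical.

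The cell wall of a growing plant cell extends faster when it is acidic, and expansins are the proteins best known for this acid growth. They are thought to weaken the contacts between cellulose and the matrix polymers, and they act on a wall that proton pumps of the plasma membrane have acidified. EXPA (alpha) and EXPB (beta) proteins have shown wall-loosening activity, while the function of the expansin-like EXLA and EXLB proteins is not settled. In roots, EXPA7 and EXPA18 are known for their expression in root hair cells. EXPA1 is known from the pericycle cells that found a lateral root, and EXPA14 and EXPA17 are known as targets of the transcription factor LBD18 in lateral root emergence.

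The sequences in front of some members are shown because these genes gave the largest differences with IAA in Col-0 (EXPA1, EXPA12 and EXPB1) or are known LBD18 targets (EXPA14). Each stretch is the 300 bases before the annotated start of the gene, 5′ to 3′ on the strand of the gene. They come from the RefSeq assembly TAIR10.1, at chr1:26141426-26141725 for EXPA1, chr3:5190254-5190553 for EXPA12, chr5:22808341-22808640 for EXPA14 and chr2:8940533-8940832 for EXPB1, all on the plus strand. Capitals mark matches to the auxin response elements TGTCTC and TGTCGG on either strand. The 1 match is in EXPA12, as CCGACA, which is TGTCGG on the other strand and lies 81 bases before the gene start.
EXPA1: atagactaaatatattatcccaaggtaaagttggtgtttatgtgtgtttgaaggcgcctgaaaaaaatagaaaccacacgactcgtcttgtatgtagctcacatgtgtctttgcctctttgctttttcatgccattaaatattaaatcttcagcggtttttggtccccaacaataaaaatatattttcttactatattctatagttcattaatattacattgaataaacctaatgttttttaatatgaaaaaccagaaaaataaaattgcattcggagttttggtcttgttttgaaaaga
EXPA12: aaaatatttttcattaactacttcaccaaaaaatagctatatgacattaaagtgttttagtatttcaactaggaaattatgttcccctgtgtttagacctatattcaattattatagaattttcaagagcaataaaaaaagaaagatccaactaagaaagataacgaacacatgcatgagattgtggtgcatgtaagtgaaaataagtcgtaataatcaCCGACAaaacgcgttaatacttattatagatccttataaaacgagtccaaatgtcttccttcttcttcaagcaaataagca
EXPA14: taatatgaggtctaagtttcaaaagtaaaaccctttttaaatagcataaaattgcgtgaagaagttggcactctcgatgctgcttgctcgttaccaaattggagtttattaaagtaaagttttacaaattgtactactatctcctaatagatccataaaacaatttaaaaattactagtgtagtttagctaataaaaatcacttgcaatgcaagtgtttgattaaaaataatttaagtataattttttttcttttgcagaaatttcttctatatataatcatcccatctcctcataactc
EXPB1: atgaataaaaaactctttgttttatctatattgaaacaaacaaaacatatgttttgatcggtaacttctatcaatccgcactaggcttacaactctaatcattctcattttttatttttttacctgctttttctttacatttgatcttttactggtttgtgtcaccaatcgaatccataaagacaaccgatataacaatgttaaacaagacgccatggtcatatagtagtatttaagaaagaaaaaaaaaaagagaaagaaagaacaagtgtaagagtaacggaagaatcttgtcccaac

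For the root hair genes, 30 bases that hold the root hair element are shown, a motif known from genes of root hair cells, with the match in capitals. They lie at chr1:4276420-4276449 for EXPA7 and chr1:23331516-23331545 for EXPA18, on the plus strand of TAIR10.1, and the second stretch also lies in AT1G62978, an annotated gene on the other strand. The element starts 78 bases before EXPA7 and 40 bases before EXPA18.
EXPA7: aaaaaggATAGTGATCCGCACGTAgccacc
EXPA18: caaaacaAACATGAACGCACGTCcattact

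Among the windows of 300 bases before 23852 genes of the table, 0.935% hold the root hair element, and EXPA7 and EXPA18 are the only expansins among them. TGTCTC on either strand was found before 4 of the 27 expansins (EXPA5, EXPA6, EXPA7 and EXPA10), against 13.0% of all windows. TGTCGG was found before 3 (EXPA12, EXPB3 and EXLA3), against 5.12% of all windows. GCGGCG, known as a binding motif of LBD proteins, was before none of the 27 and in 1.97% of all windows. CACGTG, a motif known for bHLH factors, was before EXPA2 and EXPB2, against 7.64%. These are matches of letters in a short window and do not show a binding site.

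The FPKM of a library rested on 19550600 to 22522166 fragments. SIZ1 itself was at 16.6, 12.8 and 14.1 FPKM in *siz1-2* with IAA and 14.8, 13.5 and 13.6 FPKM in *siz1-2* on MS, against 21.7, 24.7 and 28.0 FPKM in Col-0 with IAA and 26.2, 23.7 and 21.5 FPKM in Col-0 on MS. The highest *siz1-2* library thus lay below the lowest of Col-0. Against Col-0, the log2 fold change of SIZ1 was −0.76 with IAA and −0.74 on MS (limma, adjusted p = 0.0034 and 0.0056). The 6 root markers were above 0 in all 12 libraries. A set of 20 genes of green tissue stood apart, with a median of 34.8 FPKM in *siz1-2* IAA replicate 2 and 41.8 FPKM in Col-0 IAA replicate 1, against 4.48 to 13.0 FPKM in the other 10 libraries. Its summed level was 1042 and 1341 FPKM in these 2 libraries and 132 to 361 FPKM in the others, and at most 4 of the 20 markers were at 0 in any library. The part of green tissue in the expansin levels was not tested, and the counts of members are given with and without these 2 libraries.

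The expansins spanned a wide range of levels in these roots, and a few genes made up most of the family's transcripts. The summed FPKM of the 27 genes was 916, 1021.7 and 897 in *siz1-2* with IAA, against 853, 917 and 848 in *siz1-2* on MS. It was 1190.2, 843 and 941 in Col-0 with IAA, against 720.4, 757 and 775 in Col-0 on MS. The Col-0 libraries with IAA were all above those on MS, with replicate 1 the highest of all 12, while the *siz1-2* groups overlapped. The ratio of mean sums, IAA over MS, was 1.08 in *siz1-2* and 1.32 in Col-0, a description with no test. Since whole roots were sequenced, fewer cells of a type and less RNA per cell cannot be told apart for any member.

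**Figure D1:**
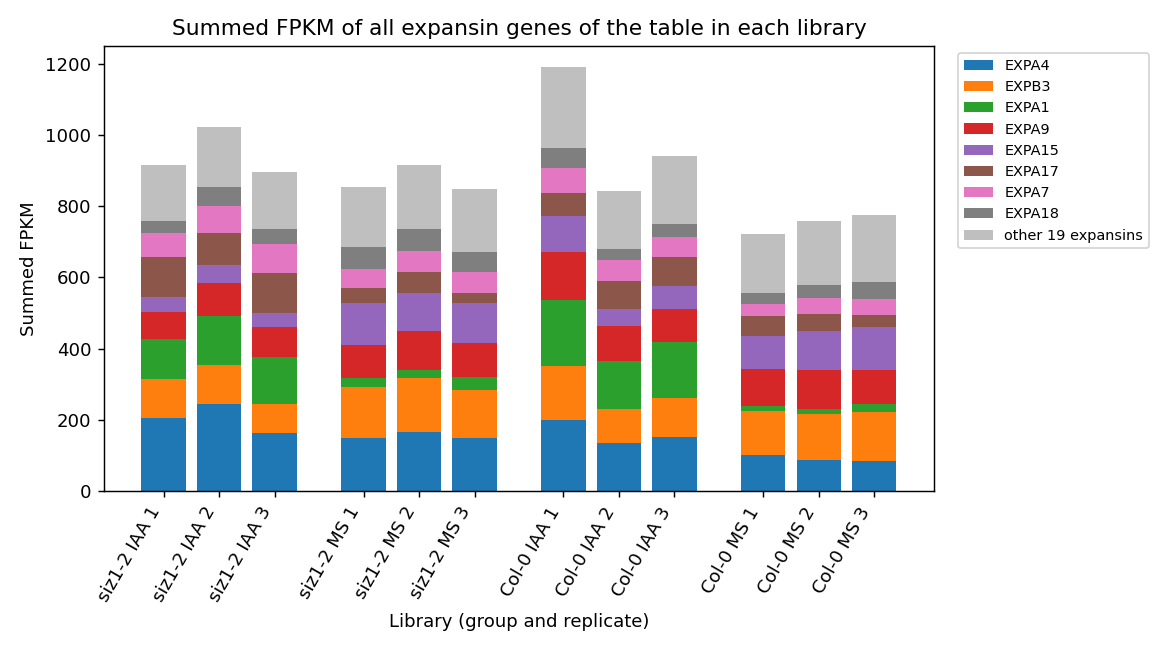
Summed FPKM of the 27 expansin genes in each of the 12 libraries (stacked bars, axis from 0), with the 8 genes of highest mean level in colour and the other 19 in light grey. Col-0 IAA replicate 1 reached 1190.2 FPKM, and the green block of EXPA1 is taller in every IAA library than in any MS library.

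EXPA4 and EXPB3 were among the most abundant members in every group, and the order of the others depended on IAA. EXPA4 took 21.6% of the mean expansin sum in *siz1-2* with IAA and 17.6% in *siz1-2* on MS, and it took 16.4% in Col-0 with IAA and 12.1% in Col-0 on MS. EXPA1 ranked second with IAA in both genotypes, with 13.5% of the sum in *siz1-2* and 16.1% in Col-0. It was eighth in *siz1-2* on MS, with 3.14%. The 8 most abundant genes together made up 82.9% of the sum in *siz1-2* with IAA and 79.9% in *siz1-2* on MS, against 80.5% in Col-0 with IAA and 78.7% in Col-0 on MS. At the other end, 5 members were not tested for their low levels. A count of 0 allows up to 3 fragments. EXPA2, known from the endosperm of germinating seeds, gave 0 to 5 fragments a library, EXPA21 gave 0 to 4 and EXPB2 gave 0 to 3. EXPA5 gave 0 to 16 and EXPA16 gave 0 to 14 fragments.

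**Figure D2:**
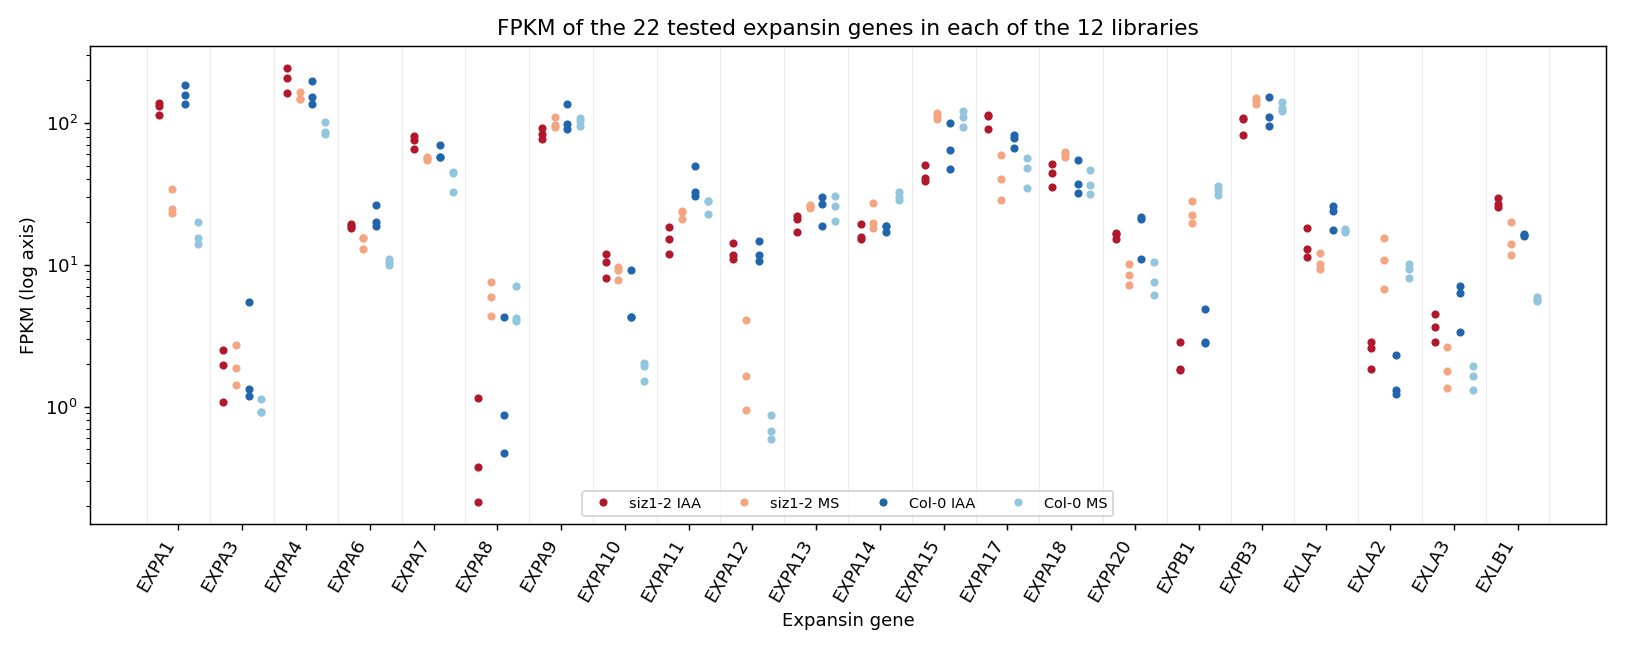
FPKM (log axis) of the 22 tested expansin genes in each of the 12 libraries, 1 point a library, with the groups in the order *siz1-2* IAA, *siz1-2* MS, Col-0 IAA and Col-0 MS within each gene. EXPA1 and EXPA12 are higher and EXPB1 and EXLA2 lower in the IAA libraries than in the MS libraries of both genotypes, without overlap.

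To ask how the family responded to auxin, IAA libraries were set against MS libraries within each genotype. Each gene was tested with limma on log2(FPKM + 0.5), on which low genes appear to change less than they do, and called at an adjusted p (Benjamini-Hochberg over the 18743 genes tested) under 0.05. In *siz1-2*, 5 of 22 members rose with IAA (EXPA1, EXPA12, EXPA17, EXPA20 and EXLB1) and 6 fell (EXPA8, EXPA11, EXPA15, EXPB1, EXPB3 and EXLA2), against 9.81% of all tested genes called higher and 8.06% called lower. In Col-0, 9 rose (EXPA1, EXPA4, EXPA6, EXPA7, EXPA10, EXPA12, EXPA20, EXLA3 and EXLB1) and 5 fell (EXPA8, EXPA14, EXPA15, EXPB1 and EXLA2), against 9.09% of all tested genes called higher and 8.21% called lower. The median log2 fold change of the 22 members was 0.03 in *siz1-2* and 0.54 in Col-0, beside 0.10 and −0.02 for all tested genes. In *siz1-2*, 8 members were higher and 9 lower without overlap of the groups, against 30.0% and 17.5% of all tested genes. In Col-0 there were 12 and 3, against 15.5% and 14.2%. Without the 2 libraries high in green tissue markers, 5 members rose and 7 fell in *siz1-2* (2780 and 1890 of all tested genes), and 10 rose and 5 fell in Col-0 (2183 and 1471).

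EXPA1, EXPA12, EXPA20 and EXLB1 were called higher in both genotypes, and EXPA8, EXPA15, EXPB1 and EXLA2 were called lower in both. No member was called in opposite directions. The shares of all tested genes with such joint calls were not computed. EXPA4, EXPA6, EXPA7, EXPA10 and EXLA3 were called higher in Col-0 alone, and EXPA17 in *siz1-2* alone. EXPA14 was called lower in Col-0 alone, and EXPA11 and EXPB3 in *siz1-2* alone. A call in 1 genotype alone does not show a different response, which was tested separately. EXPA3, EXPA9, EXPA13, EXPA18 and EXLA1 were called in neither genotype.

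**Figure D3:**
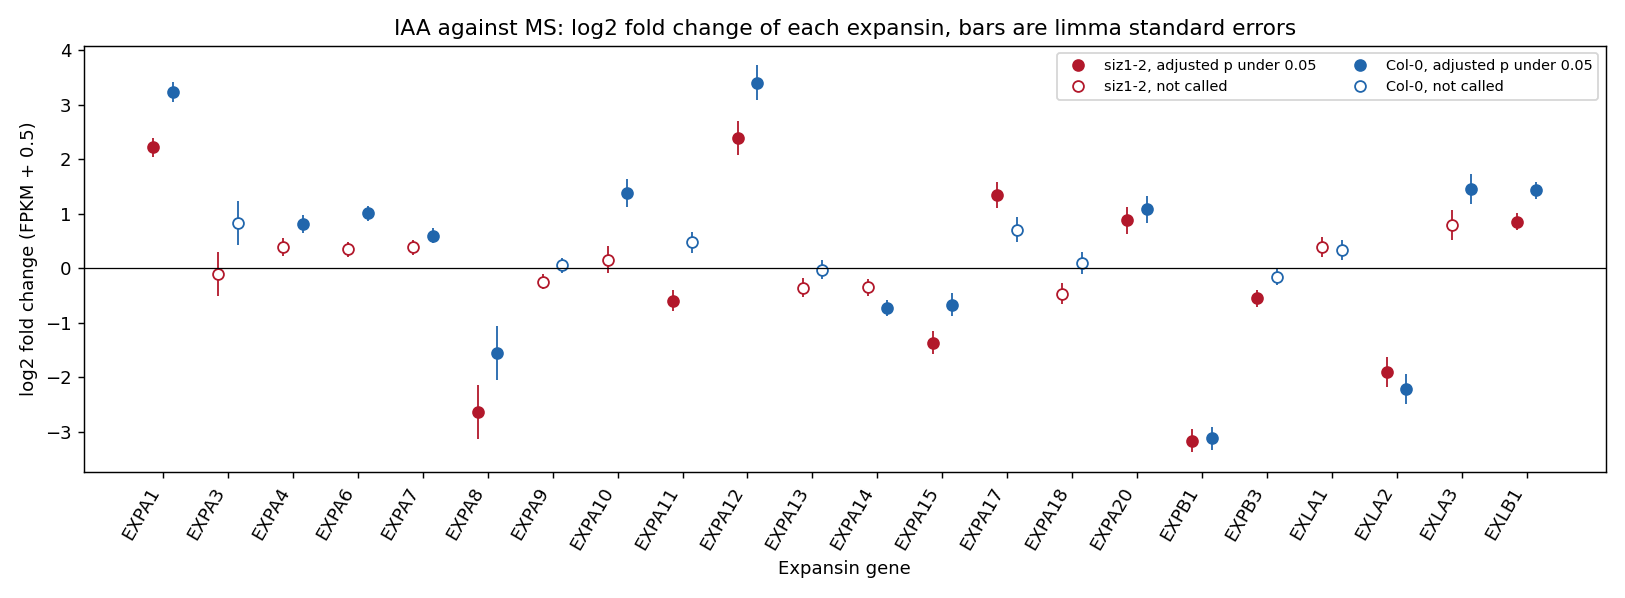
Log2 fold change of IAA against MS on the log2(FPKM + 0.5) scale for the 22 tested expansins, in *siz1-2* (red) and Col-0 (blue), with limma standard errors as bars and filled symbols for calls at an adjusted p under 0.05. EXPA1 and EXPA12 stand highest and EXPB1 lowest in both genotypes.

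EXPA1 (AT1G69530), the gene known from lateral root founder cells, gave one of the largest rises. It was at 113, 139 and 132 FPKM in *siz1-2* with IAA, against 24.8, 23.0 and 34.4 FPKM in *siz1-2* on MS. It was at 184, 136 and 157 FPKM in Col-0 with IAA, against 14.0, 15.4 and 20.2 FPKM in Col-0 on MS. All 6 IAA libraries were thus far above all 6 MS libraries. The log2 fold change was 2.22 ± 0.17 (standard error) in *siz1-2* (limma, adjusted p = 1.7e-06) and 3.24 ± 0.17 in Col-0 (limma, adjusted p = 4.7e-08).

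EXPA12 (AT3G15370) was a low gene on MS that became moderately expressed with IAA. It had 14.2, 11.0 and 11.7 FPKM in *siz1-2* with IAA, against 4.06, 0.942 and 1.65 FPKM in *siz1-2* on MS. In Col-0 it had 14.8, 11.8 and 10.7 FPKM with IAA, against 0.870, 0.674 and 0.596 FPKM on MS. The groups did not overlap, and *siz1-2* MS replicate 1 was the highest of the MS libraries. On the log2 scale the fold change was 2.39 ± 0.32 in *siz1-2* (limma, adjusted p = 0.00018) and 3.41 ± 0.32 in Col-0 (limma, adjusted p = 7.0e-06).

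EXPA20 (AT4G38210) and EXLB1 (AT4G17030), the single EXLB gene of the species, rose with IAA in both genotypes as well. EXPA20 had 16.7, 16.5 and 15.1 FPKM in *siz1-2* with IAA, against 8.48, 7.17 and 10.12 FPKM in *siz1-2* on MS, and 21.1, 11.1 and 21.8 FPKM in Col-0 with IAA, against 6.14, 7.56 and 10.5 FPKM in Col-0 on MS. Neither pair of groups overlapped, although Col-0 IAA replicate 2 was close to the highest Col-0 MS library. This gave a log2 fold change of 0.88 ± 0.24 in *siz1-2* (limma, adjusted p = 0.024, lost in 9 of 25 alternatives) and 1.08 ± 0.24 in Col-0 (limma, adjusted p = 0.0079). EXLB1 had 25.7, 29.4 and 27.0 FPKM in *siz1-2* with IAA, against 13.9, 11.6 and 20.1 FPKM in *siz1-2* on MS, and 16.5, 16.2 and 16.0 FPKM in Col-0 with IAA, against 5.58, 5.92 and 5.61 FPKM in Col-0 on MS. Its Col-0 libraries were nearly equal within each treatment, and its levels in *siz1-2* on MS reached those in Col-0 with IAA. The log2 fold change was 0.86 ± 0.16 in *siz1-2* (limma, adjusted p = 0.0026) and 1.43 ± 0.16 in Col-0 (limma, adjusted p = 4.2e-05).

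EXPB1 (AT2G20750), a beta-expansin, gave the largest fall of the family on the log2(FPKM + 0.5) scale, and it was of similar size in both genotypes. It had 1.86, 2.84 and 1.83 FPKM in *siz1-2* with IAA, against 22.3, 28.2 and 19.6 FPKM in *siz1-2* on MS. It had 4.89, 2.83 and 2.84 FPKM in Col-0 with IAA, against 31.1, 33.7 and 36.0 FPKM in Col-0 on MS. On the log2 scale the fold change was −3.16 ± 0.21 in *siz1-2* (limma, adjusted p = 4.6e-07) and −3.12 ± 0.21 in Col-0 (limma, adjusted p = 4.1e-07), with no overlap in either. By limma-voom on recovered fragments with median-of-ratios factors, EXPA8 fell further than EXPB1 in *siz1-2* (−3.70 for EXPA8 and −3.53 for EXPB1). The other tested beta-expansin, EXPB3, is far more abundant. Its levels were 107, 108 and 82.4 FPKM in *siz1-2* with IAA, against 145, 151 and 137 FPKM in *siz1-2* on MS, a log2 fold change of −0.55 ± 0.16 (limma, adjusted p = 0.030). In Col-0 it had 153, 94.7 and 110.0 FPKM with IAA, against 122, 128 and 139.7 FPKM on MS, and the groups overlapped (log2 fold change −0.15 ± 0.16, limma, adjusted p = 0.56). The EXPB3 call in *siz1-2* was lost in 6 of 25 alternatives, among them leaving out IAA replicate 1 or 3 or any of the 3 MS replicates of *siz1-2*.

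EXPA8 and EXPA15 fell in both genotypes, but in Col-0 the groups overlapped through a single library. EXPA8 had 1.16, 0.378 and 0.214 FPKM in *siz1-2* with IAA, against 5.93, 7.52 and 4.36 FPKM in *siz1-2* on MS, and 4.28, 0.876 and 0.472 FPKM in Col-0 with IAA, against 4.05, 4.195 and 7.15 FPKM in Col-0 on MS. Only Col-0 IAA replicate 1, which was also high in green tissue markers, lay within the range of the MS libraries. This gave a log2 fold change of −2.64 ± 0.49 in *siz1-2* (limma, adjusted p = 0.0023) and −1.56 ± 0.49 in Col-0 (limma, adjusted p = 0.045), and −2.24 in Col-0 without that library (limma, adjusted p = 0.00054). EXPA15, one of the most abundant members on MS, had 40.9, 50.8 and 38.8 FPKM in *siz1-2* with IAA, against 118, 107 and 113 FPKM in *siz1-2* on MS. It had 101, 47.4 and 64.3 FPKM in Col-0 with IAA, against 93.8, 109 and 121 FPKM in Col-0 on MS. Again Col-0 IAA replicate 1 was the library that overlapped with the MS group. The log2 fold change was −1.37 ± 0.21 in *siz1-2* (limma, adjusted p = 0.00057) and −0.67 ± 0.21 in Col-0 (limma, adjusted p = 0.045), and −0.96 in Col-0 without the 2 libraries high in green tissue markers (limma, adjusted p = 0.00052). The other way, EXPA8 in Col-0 was at −1.09 without IAA replicate 3 and EXPA15 at −0.42 without IAA replicate 2, neither called, and their adjusted p over all alternatives reached 0.13 and 0.15 (limma). In Col-0 the calls of EXPA8 and EXPA15 were lost in 16 and 18 of 25 alternatives, while those in *siz1-2* were kept in all 25.

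The 3 EXLA genes, which are expansin-like, did not move together. EXLA2 fell, with 2.60, 2.87 and 1.84 FPKM in *siz1-2* with IAA, against 10.8, 15.4 and 6.70 FPKM in *siz1-2* on MS, and 2.32, 1.24 and 1.31 FPKM in Col-0 with IAA, against 8.06, 10.12 and 9.38 FPKM in Col-0 on MS. On the log2 scale the fold change was −1.91 ± 0.27 in *siz1-2* (limma, adjusted p = 0.00033) and −2.22 ± 0.27 in Col-0 (limma, adjusted p = 8.2e-05), without overlap. EXLA3 went the other way. It had 2.86, 3.63 and 4.49 FPKM in *siz1-2* with IAA, against 1.79, 1.36 and 2.65 FPKM in *siz1-2* on MS (log2 fold change 0.79 ± 0.27, limma, adjusted p = 0.063). In Col-0 it had 6.32, 3.36 and 7.05 FPKM with IAA, against 1.64, 1.31 and 1.95 FPKM on MS (log2 fold change 1.46 ± 0.27, limma, adjusted p = 0.0023). The groups did not overlap in either genotype. EXLA1 was not called with IAA in either genotype, at log2 fold changes of 0.39 ± 0.18 in *siz1-2* and 0.34 ± 0.18 in Col-0. EXLA1 and EXLA3 are neighbours on chromosome 3, and their coding sequences are 86.0% identical, beside 84.7% for EXLA1 and EXLA2 and 82.3% for EXLA2 and EXLA3, so some reads could be assigned to the wrong copy.

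A further group of alpha-expansins rose with IAA in Col-0, while in *siz1-2* the same genes did not pass the threshold. EXPA4, the most abundant member with IAA, had 206, 245 and 162 FPKM in *siz1-2* with IAA, against 148, 166 and 148 FPKM in *siz1-2* on MS, and 199, 135 and 152 FPKM in Col-0 with IAA, against 102, 86.9 and 83.5 FPKM in Col-0 on MS. The groups overlapped in *siz1-2* (log2 fold change 0.39 ± 0.16, limma, adjusted p = 0.12) and not in Col-0 (0.82 ± 0.16, limma, adjusted p = 0.0038). EXPA6 had 18.7, 19.5 and 18.2 FPKM in *siz1-2* with IAA, against 13.0, 15.5 and 15.5 FPKM in *siz1-2* on MS, and 26.5, 18.8 and 19.9 FPKM in Col-0 with IAA, against 10.4, 9.94 and 11.0 FPKM in Col-0 on MS. Its IAA libraries were above the MS libraries in both genotypes (log2 fold change 0.35 ± 0.14 in *siz1-2*, limma, adjusted p = 0.098, and 1.01 ± 0.14 in Col-0, limma, adjusted p = 0.00020). EXPA10, known in Arabidopsis for promoting leaf growth, had 10.4, 11.9 and 8.02 FPKM in *siz1-2* with IAA, against 7.82, 9.26 and 9.69 FPKM in *siz1-2* on MS, and 9.21, 4.31 and 4.29 FPKM in Col-0 with IAA, against 1.52, 2.05 and 1.95 FPKM in Col-0 on MS. In *siz1-2* it was already high on MS, and its groups overlapped (log2 fold change 0.16 ± 0.25, limma, adjusted p = 0.70), against 1.39 ± 0.25 in Col-0 (limma, adjusted p = 0.0019).

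Of the root hair genes EXPA7 (AT1G12560) and EXPA18 (AT1G62980), EXPA7 was called with IAA in Col-0. EXPA7 had 65.6, 75.9 and 81.4 FPKM in *siz1-2* with IAA, against 55.0, 57.7 and 56.6 FPKM in *siz1-2* on MS, and 69.6, 57.3 and 57.2 FPKM in Col-0 with IAA, against 32.5, 45.1 and 44.2 FPKM in Col-0 on MS. The groups overlapped in neither genotype, and the log2 fold change was 0.39 ± 0.14 in *siz1-2* (limma, adjusted p = 0.067) and 0.60 ± 0.14 in Col-0 (limma, adjusted p = 0.0087). EXPA18, with 31.5 to 62.1 FPKM over all libraries, had log2 fold changes of −0.47 ± 0.20 in *siz1-2* (limma, adjusted p = 0.12) and 0.10 ± 0.20 in Col-0 (limma, adjusted p = 0.78). Other genes of root hairs were set beside them. Of 9 tested root hair regulators and wall genes outside the family, 1 rose and 2 fell in *siz1-2*, and 1 rose and 5 fell in Col-0. Of all tested genes, 9.81% were called higher and 8.06% lower in *siz1-2*, and 9.09% and 8.21% in Col-0. COBL9, known for root hair growth, averaged 10.8 ± 1.74 FPKM with IAA and 24.6 ± 3.40 FPKM on MS in *siz1-2* (SD, n = 3 each; log2 fold change −1.16 ± 0.22, limma, adjusted p = 0.0029), and 5.23 ± 2.06 FPKM in Col-0 with IAA and 19.6 ± 0.984 FPKM in Col-0 on MS (−1.87 ± 0.22, limma, adjusted p = 6.1e-05). RSL5, a transcription factor of root hair growth, was the 1 that rose, with a log2 fold change of 2.24 ± 0.24 for *siz1-2* and of 2.03 ± 0.24 for Col-0 (limma, adjusted p = 2.5e-05 and 5.3e-05). The 4 markers of non-hair epidermis all fell in Col-0, and 1 of them, GL2, fell in *siz1-2*, against 8.21% and 8.06% of all tested genes. The log2 fold change of GL2 was −0.58 ± 0.17 in *siz1-2* and −0.79 ± 0.17 in Col-0 (limma, adjusted p = 0.029 and 0.0051), and that of WER was −0.66 ± 0.24 in *siz1-2* and −1.15 ± 0.24 in Col-0 (limma, adjusted p = 0.075 and 0.0049).

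EXPA14 (AT5G56320) and EXPA17 (AT4G01630), known as LBD18 targets, differed in their response, in that EXPA14 fell in Col-0 and EXPA17 rose in *siz1-2*. The study reports, from assays of promoter binding and of a promoter reporter, that the related factor LBD29 binds and activates EXPA14. It reports less of both in *siz1-2*, and neither was measured here. EXPA14 had 15.2, 19.3 and 15.8 FPKM in *siz1-2* with IAA, against 18.1, 19.8 and 27.2 FPKM in *siz1-2* on MS, where the groups overlapped. In Col-0 it had 18.9, 17.0 and 18.7 FPKM with IAA, against 32.7, 30.0 and 28.6 FPKM on MS, where all IAA libraries were lower. This gave a log2 fold change of −0.35 ± 0.15 in *siz1-2* (limma, adjusted p = 0.13) and −0.73 ± 0.15 in Col-0 (limma, adjusted p = 0.0047). EXPA17 had 113, 90.9 and 112 FPKM in *siz1-2* with IAA, against 40.6, 59.8 and 28.4 FPKM in *siz1-2* on MS, and 66.1, 78.9 and 82.0 FPKM in Col-0 with IAA, against 57.0, 48.3 and 35.0 FPKM in Col-0 on MS. Every IAA library was above every MS library of its genotype. The log2 fold change was 1.34 ± 0.23 in *siz1-2* (limma, adjusted p = 0.0013) and 0.71 ± 0.23 in Col-0 (limma, adjusted p = 0.052, called in 9 of 25 alternatives).

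All 5 LBD genes among the factors known to connect auxin to these expansins rose in both genotypes. LBD18 had 44.7, 52.4 and 55.5 FPKM in *siz1-2* with IAA, against 2.21, 2.40 and 3.75 FPKM in *siz1-2* on MS, and 68.3, 60.7 and 65.8 FPKM in Col-0 with IAA, against 1.83, 2.15 and 1.94 FPKM in Col-0 on MS. Its log2 fold change was 3.99 ± 0.16 in *siz1-2* (limma, adjusted p = 4.4e-09) and 4.73 ± 0.16 in Col-0 (limma, adjusted p = 8.6e-10). LBD29 had 180.2, 195 and 243 FPKM in *siz1-2* with IAA, against 5.48, 3.55 and 5.16 FPKM in *siz1-2* on MS, and 174, 236 and 219 FPKM in Col-0 with IAA, against 5.32, 4.96 and 3.20 FPKM in Col-0 on MS. EXPA14 was lower in the same Col-0 IAA libraries in which LBD18 and LBD29 were many times higher. How these levels relate was not tested. LBD29 gave log2 fold changes of 5.31 ± 0.20 in *siz1-2* and 5.41 ± 0.20 in Col-0 (limma, adjusted p = 2.3e-09 and 1.5e-09). LBD16, LBD17 and LBD33 rose in both genotypes as well, by 2.12, 2.83 and 3.76 in *siz1-2* and by 1.31, 2.28 and 2.57 in Col-0. Of their upstream auxin response factors, ARF19 had a log2 fold change of 2.11 ± 0.35 in *siz1-2* (limma, adjusted p = 0.00090) and 1.01 ± 0.35 in Col-0 (limma, adjusted p = 0.063), and ARF7 was called in neither. In all, 6 of the 7 regulators were called higher in *siz1-2* and 5 of 7 in Col-0, against 9.81% and 9.09% of all tested genes.

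**Figure D4:**
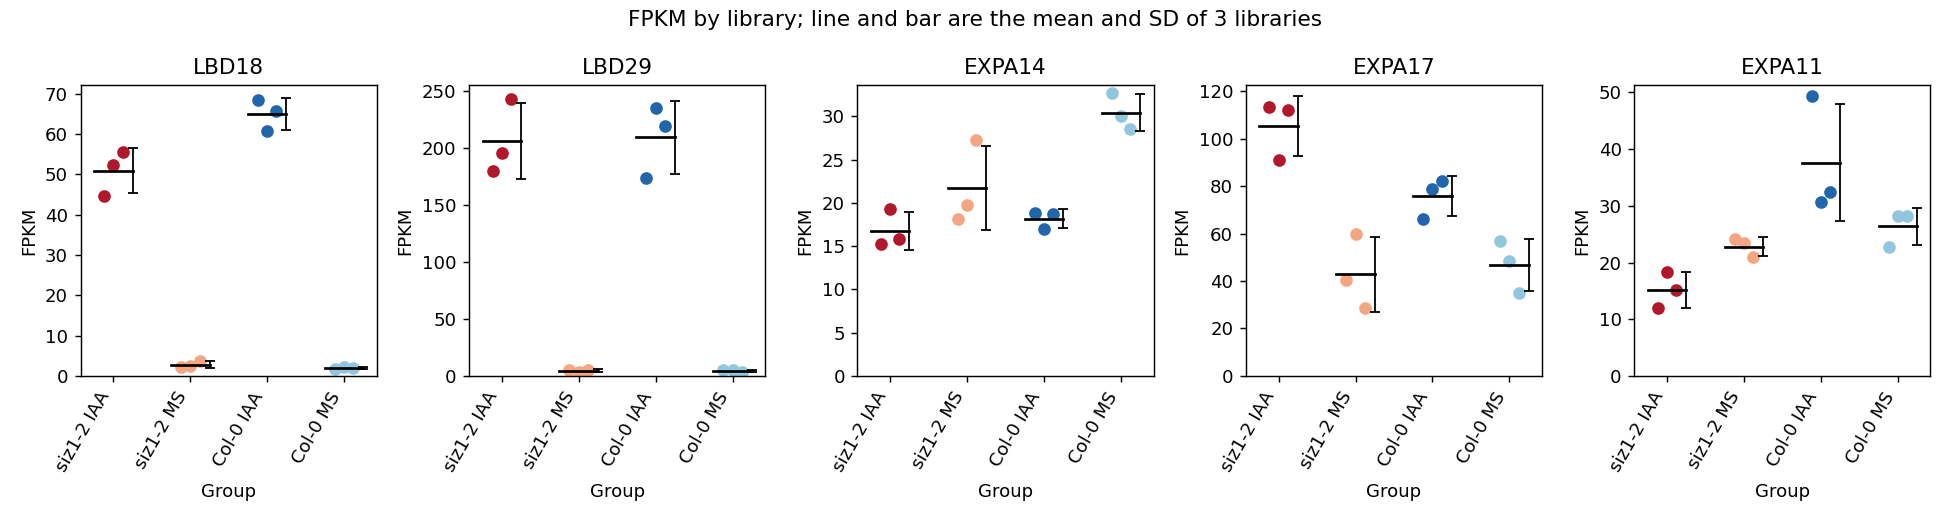
FPKM of LBD18, LBD29, EXPA14, EXPA17 and EXPA11 in each library (points), with the mean (line) and SD (bar) of 3 libraries in *siz1-2* IAA, *siz1-2* MS, Col-0 IAA and Col-0 MS, each axis from 0. EXPA14 is lower with IAA than on MS in Col-0 at 18.2 against 30.4 FPKM, EXPA17 is higher with IAA in both genotypes, and EXPA11 with IAA is at 15.2 FPKM in *siz1-2* and 37.6 FPKM in Col-0.

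EXPA11 (AT1G20190) was the member in which the libraries of the genotypes lay in opposite directions. It had 11.9, 18.3 and 15.2 FPKM in *siz1-2* with IAA, against 24.1, 23.4 and 21.0 FPKM in *siz1-2* on MS (log2 fold change −0.59 ± 0.19, limma, adjusted p = 0.045, lost in 14 of 25 alternatives). It had 49.4, 30.7 and 32.5 FPKM in Col-0 with IAA, against 22.7, 28.1 and 28.2 FPKM in Col-0 on MS (0.48 ± 0.19, limma, adjusted p = 0.10). All *siz1-2* libraries with IAA were below those on MS, and all Col-0 libraries with IAA were above those on MS. Of all tested genes, 17.5% were lower without overlap in *siz1-2*, and 15.5% were higher without overlap in Col-0. Col-0 IAA replicate 1, high in green tissue markers, was the highest of the 12. The difference between the responses was −1.07 ± 0.27 and did not pass the adjustment over all genes (limma, unadjusted p = 0.0015, adjusted p = 0.27).

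Whether the response to IAA differed between the genotypes was tested as the difference of the log2 fold changes, *siz1-2* minus Col-0. None of the 22 members passed, against 0.016% of all tested genes (3 of 18743, all lower), and none passed with limma-voom on recovered fragments, by which 2 genes were called in all. At an unadjusted p under 0.05 there were 7 members, against 11.3% of all tested genes, namely EXPA1, EXPA6, EXPA10, EXPA11, EXPA12, EXPA15 and EXLB1. The difference was −1.02 ± 0.25 for EXPA1 (limma, adjusted p = 0.27), −1.23 ± 0.36 for EXPA10 (limma, adjusted p = 0.34), −0.66 ± 0.20 for EXPA6 (limma, adjusted p = 0.34) and −0.57 ± 0.23 for EXLB1 (limma, adjusted p = 0.43). It was below 0 in 18 of the 22 members, beside 40.0% of all tested genes, with a median of −0.50 for the members and 0.09 for all tested genes. The green tissue markers lay the same way, with 19 of 20 below 0 and a median of −0.94. Without Col-0 IAA replicate 1, 18 of 22 members were still below 0 but their median was −0.31, beside 47.9% of all tested genes below 0, and 14 of 20 green tissue markers were below 0 with a median of −0.15. Without both libraries high in these markers the members were at 18 of 22 and −0.36, and the markers at 20 of 20 and −1.06. The part of green tissue in this was not tested. With each library centred on its median, 19 members and 54.1% of all tested genes were below 0. The 4 members above 0 were EXPA14, EXPA17, EXLA1 and EXLA2, at 0.04 to 0.63. For EXPB1 the difference was −0.04 ± 0.30.

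Without IAA, *siz1-2* roots had more transcript of 4 expansins and less of 1 than Col-0 roots. EXPA1, EXPA4, EXPA10 and EXLB1 were called higher and EXLA1 lower in *siz1-2* on MS, against 2.75% of all tested genes called higher and 2.55% called lower (5.3% in all). Without overlap of the groups, 9 members were higher and 3 lower, against 10.4% and 22.2% of all tested genes. EXPA10 differed most, with 7.82, 9.26 and 9.69 FPKM in *siz1-2* on MS and 1.52, 2.05 and 1.95 FPKM in Col-0 on MS (log2 fold change 2.01 ± 0.25, limma, adjusted p = 0.00045). EXLB1 followed, at 15.2 ± 4.38 FPKM in *siz1-2* and 5.70 ± 0.189 FPKM in Col-0 on MS (SD, n = 3 each; log2 fold change 1.31 ± 0.16, limma, adjusted p = 0.00044). These 2 calls were kept under all 26 alternatives. On the log2 scale the fold change was 0.76 ± 0.16 for EXPA4 (limma, adjusted p = 0.016) and 0.71 ± 0.17 for EXPA1 (limma, adjusted p = 0.033), the genes listed above with their libraries. Neither gene's groups overlapped, and the calls were lost in 4 and 6 of 26 alternatives.

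EXLA1 was lower in *siz1-2*, with 10.2, 12.2 and 9.33 FPKM in *siz1-2* and 17.4, 17.9 and 17.0 FPKM in Col-0 on MS. Its groups did not overlap (log2 fold change −0.70 ± 0.18, limma, adjusted p = 0.043), but the call was lost in 15 of 26 alternatives. On MS, deviations of same-numbered libraries of *siz1-2* and Col-0 from their group means correlated at 0.119 to 0.337. With the replicate number as a block in a fit of these groups alone, 7 members were higher and 2 lower, against 5.34% and 9.66% of all tested genes. In a fit of these groups alone and without the block 6 were higher and 2 lower, against 3.45% and 5.3%. EXPA6 and EXPA18 (higher) and EXPB1 (lower) were added by both of these fits, and EXPA7 (higher) by the one with the block. EXPA18 was at 60.8, 62.1 and 57.1 FPKM in *siz1-2* and 31.5, 36.5 and 46.4 FPKM in Col-0 on MS, without overlap (log2 fold change 0.66 ± 0.20, limma over all 12 libraries without the block, adjusted p = 0.074, and 0.022 in the fit of these groups alone). Beside EXPA7 and EXPA18, 8 of the 9 root hair genes outside the family had a log2 fold change above 0 on MS (median 0.31). Of these, PRP1, named after its values were seen, was called higher (limma, adjusted p = 0.017). All 4 non-hair markers were below 0 (median −0.48). None of them was called, and 2 were at an unadjusted p under 0.05, against 18.6% of all tested genes. Over all tested genes, 62.2% were below 0 on MS, with a median of −0.08. With IAA, 6 of these 9 root hair genes were called higher in *siz1-2*, against 3.91% of all tested genes. It was 4 of them, against 2.6% of all tested genes, without the 2 libraries high in green tissue markers. The part of root hair cells in the levels of EXPA7 and EXPA18 was not tested. Without the 2 libraries high in green tissue markers, neither of them on MS, 7 members were higher and 3 lower, while the fold changes on MS stayed as they were, and 4.15% of all tested genes were called higher and 6.53% lower. EXPA12 had a log2 fold change of 1.00 ± 0.32 on MS and was not called (limma, adjusted p = 0.097), but was called with the replicate block over all libraries (limma, adjusted p = 0.048) and without *siz1-2* MS replicate 2 (1.37, limma, adjusted p = 0.018). EXPA14 was at −0.50 ± 0.15 on MS, without overlap, and was not called (limma, adjusted p = 0.083). It was called lower in 3 of 26 alternatives. With IAA it was at −0.12 ± 0.15 (limma, adjusted p = 0.65).

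**Figure D5:**
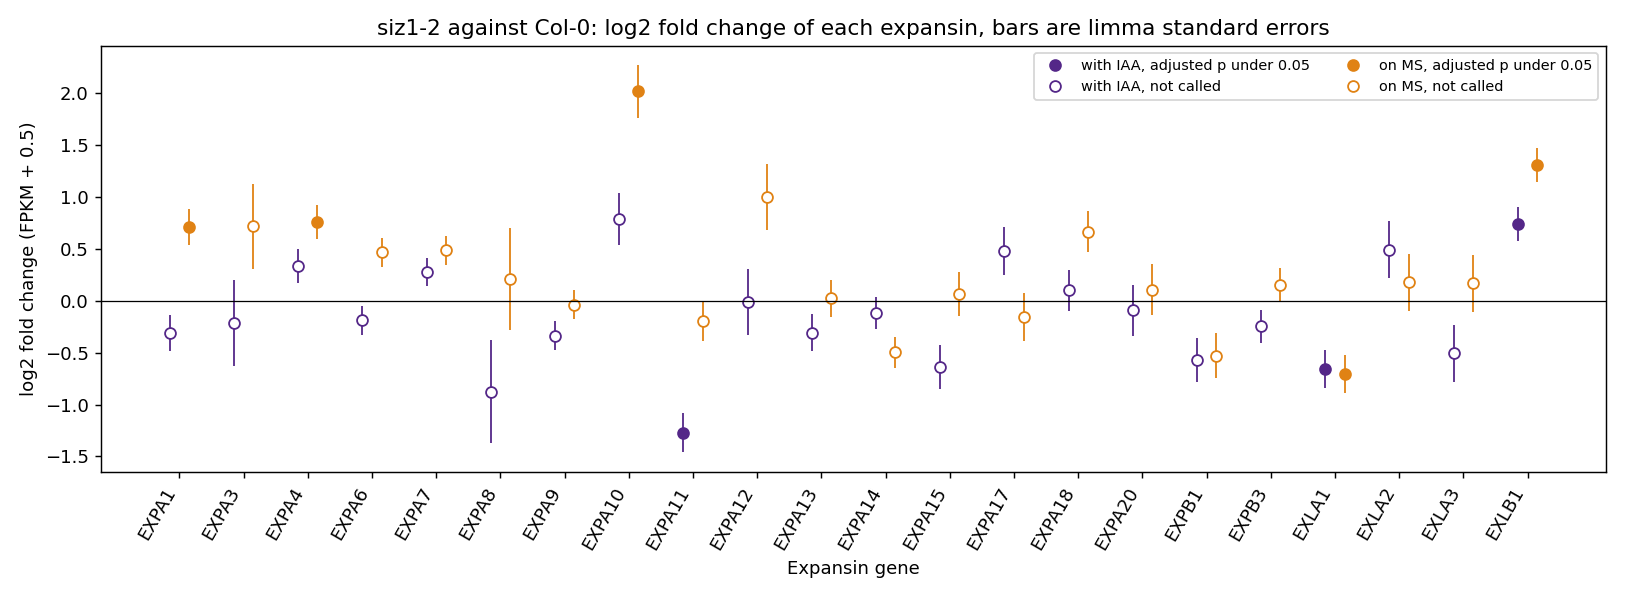
Log2 fold change of *siz1-2* against Col-0 on the log2(FPKM + 0.5) scale for the 22 tested expansins, with IAA (purple) and on MS (orange), with limma standard errors as bars and filled symbols for calls at an adjusted p under 0.05. EXPA10 and EXLB1 stand highest on MS, and EXPA11 lowest with IAA.

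With IAA, 3 expansins were called between the genotypes. EXLB1 was higher in *siz1-2*, and EXPA11 and EXLA1 were lower, against 3.91% of all tested genes called higher and 5.21% called lower (9.12% in all). The groups did not overlap for 2 members higher and 1 lower, against 13.9% and 14.8% of all tested genes. EXLB1 was at 25.7, 29.4 and 27.0 FPKM in *siz1-2* and 16.5, 16.2 and 16.0 FPKM in Col-0 with IAA (log2 fold change 0.73 ± 0.16, limma, adjusted p = 0.013). No library of *siz1-2* overlapped with Col-0, but the call was lost in 3 of 25 alternatives, among them the fit without *siz1-2* IAA replicate 2 (limma, adjusted p = 0.058) and the fit without the 2 libraries high in green tissue markers (limma, adjusted p = 0.054), which left the count at 1 higher. EXPA11 gave the largest difference, −1.27 ± 0.19 (limma, adjusted p = 0.0012), and this call was kept under all 25 alternatives. EXLA1 was at 11.4, 13.0 and 18.1 FPKM in *siz1-2* and 17.5, 24.1 and 26.1 FPKM in Col-0 with IAA, where the groups overlapped (log2 fold change −0.66 ± 0.18, limma, adjusted p = 0.041, lost in 12 of 25 alternatives). EXPA10, the member that differed most on MS, had a log2 fold change of 0.79 ± 0.25 with IAA (limma, adjusted p = 0.070). It was called higher in 2 of 25 alternatives. Without Col-0 IAA replicate 1 it was at 1.13 (limma, adjusted p = 0.0017). Without the 2 libraries high in green tissue markers it was at 1.00 (limma, adjusted p = 0.0075), and was the 1 member called higher there.

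EXPA3, EXPA9, EXPA13 and EXPA18 were called in none of the 5 comparisons, and the other tested members in at least 1. The share of all tested genes called in at least 1 comparison was not computed. EXPA9 was abundant, at 77.6 to 135 FPKM, and EXPA13 moderate, at 17.1 to 30.6 FPKM. EXPA3 was low, at 0.913 to 5.48 FPKM, with the highest value in Col-0 IAA replicate 1. The AHA family of proton pumps, for comparison, gave no call with IAA in either genotype among 9 tested genes. Of all tested genes, 17.9% were called in *siz1-2* and 17.3% in Col-0. At an unadjusted p under 0.05 (limma) there were 3 AHA genes in *siz1-2* and 2 in Col-0, against 31.6% and 31.0% of all tested genes. AHA2, a main pump of roots, averaged 722 ± 61.9 FPKM with IAA and 995 ± 147 FPKM on MS in *siz1-2*, and 591 ± 101 FPKM in Col-0 with IAA and 774 ± 155 FPKM in Col-0 on MS (SD, n = 3 each). Its log2 fold change was −0.46 ± 0.17 in *siz1-2* and −0.38 ± 0.17 in Col-0 (limma, adjusted p = 0.085 and 0.15). That of AHA11 was −0.18 ± 0.16 in *siz1-2* and −0.48 ± 0.16 in Col-0 (limma, adjusted p = 0.48 and 0.055).

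The auxin response elements in front of the members were set beside their response. TGTCTC or TGTCGG was before 1 of the 5 members higher with IAA in *siz1-2* (EXPA12) and before 1 of the 6 lower ones (EXPB3). In Col-0 it was before 5 of the 9 higher members (EXPA6, EXPA7, EXPA10, EXPA12 and EXLA3) and before none of the 5 lower ones. Of the windows before all genes, 17.5% held either motif, and of those before the 27 expansins 25.9% (7 of 27). Among tested genes called with IAA the share was 18.5% of the higher and 17.4% of the lower ones in *siz1-2*, and 18.7% of the higher and 18.1% of the lower ones in Col-0. EXPA1, with one of the largest rises, has neither in the 300 bases printed above.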

How the data were processed

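Roots of *siz1-2* and Col-0 seedlings were sequenced with IAA and on MS, with 3 libraries a group. The authors deposited FPKM per gene, made on the platform of their sequencing provider, and the sources used here do not name the aligner or the build. The deposited FPKM, multiplied by the exonic length of each gene in RefSeq TAIR10.1, gave whole fragments (tolerance 0.05) for 100.0% of values of 1 to 100 fragments, and the cross-references of all 23853 genes equal those of that annotation, so TAIR10.1 was used for sequences and coordinates. The members and lists were chosen with earlier results of these data known.

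The 18743 genes that reached 1 FPKM in 3 or more libraries were fitted as 4 group means over all 12 libraries with limma 3.58.1 (R 4.3.3, trend) on log2(FPKM + 0.5), after the script was tested on simulated data. Members called in any of 5 contrasts are given by library, the others by range. From each other list the 2 genes with the largest limma statistic for IAA in Col-0 were taken, and all 7 auxin-to-expansin regulators. Root markers PLT1 (log2 fold change −0.47) and WOX5 (0.55) and green tissue markers RBCS3B (4.71) and LHCB2.2 (3.67) came from this rule for IAA in Col-0, and of these RBCS3B and LHCB2.2 were called (limma, adjusted p = 0.012 and 0.013). The symbol of EXPA3 in the deposited table is EXP3. Deviations of same-numbered libraries from their group means correlated at 0.119, 0.203 and 0.337 between *siz1-2* and Col-0 on MS. They correlated at −0.279 to 0.282 between the other pairs of groups. The fit behind the calls used no block, on MS as well, and a fit with a block on MS was added. The 22 alternatives listed at the start and the 4 added after the data were seen (limma-voom on recovered fragments with and without median-of-ratios factors, 2 libraries left out, a block on MS) are described with the closing observations. Motifs were searched on both strands with Python 3.11.15 and Biopython 1.88.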

Additional observations from a re-analysis of the deposited data

Results flagged for a closer look

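EXPA11 drew attention because its libraries moved in opposite directions in the 2 genotypes. With IAA all 3 *siz1-2* libraries were below those on MS, and all 3 Col-0 libraries were above those on MS. The difference of the log2 fold changes was −1.07 (limma, unadjusted p = 0.0015, adjusted p = 0.27 over all genes), so it did not pass the adjustment. Col-0 IAA replicate 1, which held the highest EXPA11 level at 49.4 FPKM, also had a high median of green tissue markers at 41.8 FPKM, and the part of this in the difference was not tested.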

How the results depend on the processing

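Of 33 calls of members over the contrasts, 19 were kept under every alternative that tested the gene (EXLA3 was not tested under the filter of 5 FPKM), 14 were lost under at least 1, and 0 changed sign. The interaction gave 0 calls under all alternatives. Causes of changes were not tested. For IAA in *siz1-2*, 8 members were higher in a fit of the compared groups alone and 3 when a log2 fold change of 1 or more in size was also required (the fold limit). Of all tested genes, 18.7% were higher in that fit of the compared groups, against 9.81% over all libraries. Shares of all tested genes were not computed for the fold limit. For IAA in Col-0, 3 were lower with no filter, with median centring, without the trend, in a fit of the compared groups alone and with the fold limit. Of all tested genes, 6.07% (no filter), 8.22% (median centring), 7.66% (no trend) and 4.54% (compared groups) were lower, against 8.21% in the fit behind the calls. For *siz1-2* against Col-0 on MS, 7 were higher with the replicate block in the fit of the compared groups (2 lower), 7 higher and 3 lower without the 2 libraries high in green tissue markers, and 2 higher and 0 lower with the fold limit. There 0 were lower with no filter, median centring, quantile normalization, no trend, and limma-voom with or without median-of-ratios factors, and 2 in the fit of the compared groups alone. Of all tested genes, 1.71% to 2.56% were lower on MS in the settings with 0, and 5.3% in the fit of the compared groups. With the block in that fit, 5.34% were higher and 9.66% lower. Without the 2 libraries high in green tissue markers it was 4.15% and 6.53%, against 2.75% and 2.55% in the fit behind the calls. With IAA, 1 was lower in *siz1-2* with no filter, without the trend, in the fit of the compared groups and with the fold limit, which left 0 higher. Of all tested genes, 3.83% (no filter), 4.79% (no trend) and 2.75% (compared groups) were lower there, against 5.21% in the fit behind the calls. SIZ1, at −0.74 on MS and −0.76 with IAA, did not reach the fold limit.

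Leaving out 1 library gave 4 to 8 higher and 4 to 7 lower for IAA in *siz1-2*, with 8 higher without Col-0 IAA replicate 1, and 9 to 11 higher and 3 to 5 lower in Col-0. Of all tested genes, 5.87% to 17.9% were then higher and 4.97% to 11.4% lower in *siz1-2*, both highest without Col-0 IAA replicate 1. The fit over all libraries called 9.81% and 8.06%. In Col-0 the shares were 5.99% to 12.6% higher and 5.01% to 11.9% lower. For *siz1-2* against Col-0 it gave 2 to 7 higher and 0 to 2 lower on MS, with 7 higher and 2 lower without Col-0 IAA replicate 1 and 2 higher without Col-0 MS replicate 2, and 0 to 2 higher and 1 to 2 lower with IAA, with 0 higher without *siz1-2* IAA replicate 2 and 2 without Col-0 IAA replicate 1. On MS the shares of all tested genes were 1.51% to 4.36% higher and 1.33% to 7.23% lower, both highest without Col-0 IAA replicate 1. With IAA they were 1.89% to 5.06% higher and 2.76% to 7.06% lower. For IAA in Col-0, 3 were lower without replicate 2 or 3 of either IAA group or without any 1 of the MS libraries. The replicate block over all libraries gave 6 higher and 5 lower for IAA in *siz1-2* and 9 higher and 4 lower in Col-0, and between the genotypes 5 higher and 1 lower on MS and 1 higher and 2 lower with IAA. Of all tested genes, this block called 8.94% higher and 7.65% lower for IAA in *siz1-2*, and 8.33% and 7.51% in Col-0. Between the genotypes it called 2.62% and 2.19% on MS, and 3.51% and 4.49% with IAA. Outside MS no block was used in a fit of the compared groups alone (correlations −0.279 to 0.282).

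Median centring moved the median of all genes to −0.01 for IAA in *siz1-2* (0.10 as deposited), to −0.04 for the interaction (0.09) and to 0.04 for *siz1-2* against Col-0 on MS (−0.08). The share of calls that were higher was 41.9% with median centring and 44.4% with median-of-ratios factors for IAA in *siz1-2*, against 54.9% as deposited, and 68.5% and 63.2% on MS, against 51.9%. Over all genes, the fit of the compared groups alone called 3508 higher and 2242 lower for IAA in *siz1-2* (1839 and 1510 over all libraries), 1016 and 851 in Col-0 (1703 and 1538), and 396 and 516 between genotypes with IAA (732 and 977). On MS that fit called 647 and 993, and 1000 and 1811 with the block (516 and 478 over all libraries). Members with few fragments (EXPA8, at 6 to 219) are limited by counting error.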
